A study of Mus musculus with 28 samples.

Results

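The genes of the urea cycle were followed in the livers of mice with nonalcoholic steatohepatitis (NASH) given 1 of 2 agonists of the farnesoid X receptor (FXR), the nuclear receptor for bile acids. The set of 9 genes was taken by name from the 21935 genes of the count table, and 8 are described. They were the enzymes *Nags*, *Cps1*, *Otc*, *Ass1*, and *Asl* and the mitochondrial carriers *Slc25a15*, *Slc25a13*, and *Slc25a2*. Each symbol matched 1 Ensembl gene, and 7 of the 8 had enough counts to be among the 12580 genes tested. The exception was *Slc25a2*, the second ornithine carrier, which had 12 counts over all mice, in 7 of 28 livers and at most 3 in any of them.

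Messenger RNA was sequenced from the liver of 28 mice, 1 library per mouse. All were male B6.V-Lepob/JRj mice, which lack leptin and become obese, and were 5 weeks old on arrival. Feeding with the AMLN diet, which is high in fat and contains fructose and cholesterol, began 14 weeks before treatment and went on throughout. Vehicle was given to 10 mice, obeticholic acid (OCA) 30 mg/kg to 9 mice, and INT-787 30 mg/kg to 9 mice, orally once daily for 2 weeks. No group was lean, on a control diet, or leptin sufficient, so the comparisons concern drug against vehicle within 1 disease model.

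Library totals ranged from 1009593 counts (vehicle replicate 6) to 22421506, with the next lowest at 9313260. Over 196 pairs of a near-silent gene and an expressed gene overlapping it on the other strand, the counts given to the silent genes were 0.468 of those expected from reads without strand in vehicle replicate 5, against 0.0077 to 0.0187 in the other 27 mice. Without both of these vehicle mice, the numbers of urea cycle genes that passed the test in the 3 comparisons stayed at 6, 4, and 1.

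The urea cycle turns ammonia, released when amino acids are broken down, into urea, and it runs in full only in hepatocytes, mostly in those near the portal vein. It begins in mitochondria, where carbamoyl phosphate is made and joined to ornithine, continues in the cytosol through argininosuccinate and arginine, and returns ornithine to the mitochondria. Its enzymes are known to be regulated largely by the amount of their messenger RNA, with glucagon and glucocorticoids as classical inducers, and *Nags* supplies the activator without which carbamoyl phosphate is not made.

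Compared with vehicle, INT-787 raised 6 of the 7 genes tested and OCA raised 4 of 7, and none fell with either drug at an adjusted p of at most 0.05 (quasi-likelihood test of edgeR, Benjamini-Hochberg adjustment). Of all genes tested, INT-787 changed 19.6% (10.2% higher, 9.48% lower) and OCA changed 6.6% (4.15% higher, 2.45% lower). The median log2 fold change of the 7 genes was 0.71 with INT-787 and 0.56 with OCA, whereas that of all genes was -0.0010 and 0.018. All 7 estimates were above 0 with each drug, a direction shared by 49.8% of all genes with INT-787 and 53.8% with OCA. Both comparisons use the same vehicle mice, so they are not independent of each other. In bulk liver, more cells of a type and more RNA per cell cannot be told apart.

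**Figure D1:**
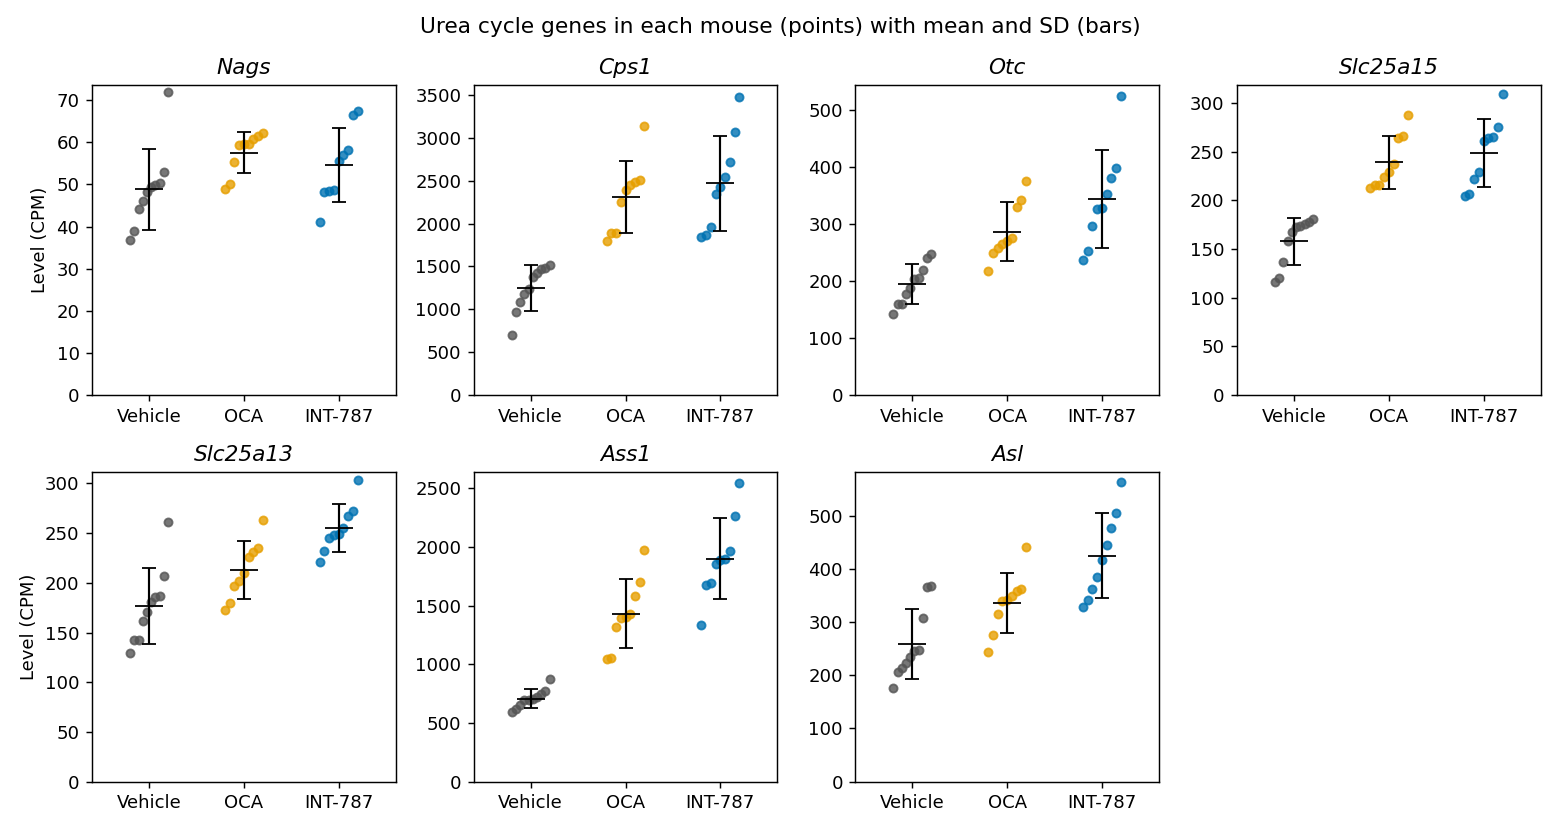
Levels of the 7 tested urea cycle genes in CPM (counts scaled to a common library total, vertical axes from 0) in each mouse (points) given vehicle, OCA, or INT-787, with the group mean and SD. *Cps1*, *Ass1*, and *Slc25a15* separate every treated mouse from every vehicle mouse, whereas the groups overlap for *Nags*.

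For *Ass1*, *Otc*, and *Nags*, which had the largest response, a middle response, and the smallest, sequence just before the gene is shown to place the values beside it, from windows of 250 bases before the transcription start in RefSeq. Capitals mark matches to the letters of the motifs named after the sequences, and a match is a description of the letters only. The sequences are from RefSeq on GRCm38.p6, 5′ to 3′ on the strand of the gene, at chr2:31470020-31470206 (+ strand) for *Ass1*, chrX:10252055-10252304 (+ strand) for *Otc*, and chr11:102145263-102145512 (+ strand) for *Nags*. The RefSeq start of *Ass1* lies inside the gene as GENCODE M21 places it, so the last 63 bases of its window are not shown and 187 are.
Ass1: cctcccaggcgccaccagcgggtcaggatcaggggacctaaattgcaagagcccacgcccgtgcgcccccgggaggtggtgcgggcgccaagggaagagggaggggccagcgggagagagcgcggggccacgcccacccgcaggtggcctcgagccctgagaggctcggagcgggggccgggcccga
Otc: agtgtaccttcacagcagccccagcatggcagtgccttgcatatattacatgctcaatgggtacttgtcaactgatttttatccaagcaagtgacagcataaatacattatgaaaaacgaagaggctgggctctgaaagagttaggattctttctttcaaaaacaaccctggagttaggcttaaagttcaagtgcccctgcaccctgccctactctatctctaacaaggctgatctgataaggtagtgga
Nags: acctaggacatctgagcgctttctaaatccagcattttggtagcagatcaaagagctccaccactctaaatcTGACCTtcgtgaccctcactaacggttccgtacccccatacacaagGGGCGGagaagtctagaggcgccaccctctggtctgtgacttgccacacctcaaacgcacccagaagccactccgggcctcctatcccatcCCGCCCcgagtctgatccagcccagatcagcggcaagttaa
The motifs searched on both strands were a nuclear receptor half-site (AGGTCA), the FXR inverted repeat of this half-site with 1 base between the copies, an HNF4 site (CAAAGTCCA), a C/EBP site (TTGCGCAA), a cAMP response element (TGACGTCA), a TATA box (TATAAA), and a GC box (GGGCGG). Of 32851 windows of this length in the RefSeq table, the inverted repeat was in 0.00609%, the half-site in 14%, the HNF4 letters in 0.384%, the C/EBP letters in 0.164%, the cAMP element in 1.55%, the TATA letters in 12.4%, and the GC box in 32.7%. The whole *Ass1* window held 1 GC box, which began in the 63 bases inside the gene, at a GC content of 75.6%, against 53.2% on average over all windows. The *Nags* window held 1 half-site and 2 GC boxes at 55.6% GC, and the *Otc* window held none of the motifs at 43.6% GC. The table also held the *Slc25a13* window (62.8% GC, no match) and 2 windows of *Slc25a15* (57.6% and 80.4% GC, with 2 and 5 GC boxes, the second wholly inside the gene as GENCODE places it), so 5 of the 8 genes matched, and *Cps1*, *Asl*, and *Slc25a2* did not.

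*Nags*, *Cps1*, and *Otc* form the mitochondrial entry to the cycle. *Cps1* (chr1:67123026-67231259, GRCm38) makes carbamoyl phosphate from ammonia and bicarbonate. Its level, in CPM, was 695 to 1523 with a median of 1311 in vehicle mice, 1798 to 3139 with a median of 2389 with OCA, and 1843 to 3482 with a median of 2432 with INT-787. Every mouse given either drug was above the highest vehicle mouse. The log2 fold change was 0.99 ± 0.138 (SE) with INT-787 (adjusted p = 2.8e-06 by edgeR) and 0.89 ± 0.138 with OCA (adjusted p = 4.0e-05 by edgeR), or 1.99- and 1.86-fold.

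*Otc* (chrX:10252305-10321024) joins carbamoyl phosphate to ornithine. It measured 143 to 248 CPM with a median of 195 in vehicle mice, 217 to 376 with a median of 269 with OCA, and 236 to 525 with a median of 329 with INT-787. With each drug, 8 of 9 mice were above the highest vehicle mouse and 1 overlapped the vehicle range. *Otc* rose 1.77-fold with INT-787 (log2 0.82 ± 0.128 SE, adjusted p = 1.8e-05 by edgeR) and 1.47-fold with OCA (log2 0.56 ± 0.128 SE, adjusted p = 0.0049 by edgeR).

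*Nags* (chr11:102145513-102149477) makes N-acetylglutamate, the activator of the *Cps1* product. It measured 36.8 to 71.9 CPM with a median of 48.8 in vehicle mice, 49.0 to 62.1 with a median of 59.5 with OCA, and 41.0 to 67.5 with a median of 55.6 with INT-787. No treated mouse was above the highest vehicle mouse, replicate 10, whereas 7 of 9 OCA and 5 of 9 INT-787 mice were above the next highest at 53.0 CPM. All 9 OCA mice and 5 of 9 INT-787 mice were above the vehicle median. The log2 fold change was 0.16 with INT-787 (95% interval -0.05 to 0.36, adjusted p = 0.30 by edgeR) and 0.23 with OCA (0.03 to 0.44, adjusted p = 0.20 by edgeR), so neither passed the test. Without vehicle replicate 10, *Nags* passed with OCA (0.30, adjusted p = 0.038 by edgeR) and not with INT-787 (0.24, adjusted p = 0.057 by edgeR). *Nags* overlaps the antisense gene *Gm11586*, which is not in the count table, by 443 exonic bases on the opposite strand. Within this overlap, reads of the 2 genes can be told apart only by strand, and the library of 1 vehicle mouse, replicate 5, did not carry strand as the others did, with *Nags* at 49.3 CPM.

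In the cytosol, *Ass1* (chr2:31470207-31520672) joins citrulline to aspartate and had the largest response of the 7 genes. It measured 594 to 873 CPM with a median of 700.3 in vehicle mice, 1041 to 1975 with a median of 1399 with OCA, and 1334 to 2544 with a median of 1887 with INT-787. All treated mice lay above all vehicle mice. *Ass1* rose 2.68-fold with INT-787 (log2 1.42 ± 0.115 SE, adjusted p = 5.3e-11 by edgeR) and 2.02-fold with OCA (log2 1.02 ± 0.114 SE, adjusted p = 2.0e-07 by edgeR). A copy, *Gm5424*, is 99.5% identical to *Ass1* over 1240 aligned bases and is not in the count table, so how its reads were assigned is not known.

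*Asl* (chr5:130011258-130029247, − strand) splits argininosuccinate into arginine and fumarate. It measured 176 to 368 CPM with a median of 240.0 in vehicle mice, 243 to 442 with a median of 342 with OCA, and 328 to 563 with a median of 416 with INT-787. With INT-787, 6 of 9 mice were above the highest vehicle mouse, and with OCA 1 of 9 was, although all 9 were above the vehicle median. *Asl* rose 1.64-fold with INT-787 (log2 0.71 ± 0.131 SE, adjusted p = 0.00015 by edgeR). With OCA the log2 fold change of 0.38 (95% interval 0.11 to 0.64) did not pass (adjusted p = 0.080 by edgeR), and it passed without vehicle replicate 4 (adjusted p = 0.029 by edgeR), vehicle replicate 10 (0.036), or OCA replicate 1 (0.048). It also passed with sets of neighbouring sample numbers as a factor (0.015), where vehicle replicate 4 and OCA replicate 9 have no partner and drop out.

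Of the carriers, *Slc25a15* (chr8:22375551-22398597, − strand) exchanges cytosolic ornithine for citrulline. It measured 116 to 181 CPM with a median of 169.5 in vehicle mice, 212 to 288 with a median of 229 with OCA, and 205 to 309 with a median of 261 with INT-787. As for *Cps1* and *Ass1*, no treated mouse overlapped the vehicle range. *Slc25a15* rose 1.57-fold with INT-787 (log2 0.65 ± 0.0950 SE, adjusted p = 6.2e-06 by edgeR) and 1.51-fold with OCA (log2 0.59 ± 0.0949 SE, adjusted p = 6.2e-05 by edgeR).

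*Slc25a13* (chr6:6041218-6217173, − strand) exports aspartate, the substrate of *Ass1*, from mitochondria. It measured 129.7 to 261 CPM with a median of 176 in vehicle mice, 172 to 263 with a median of 209.7 with OCA, and 221 to 303 with a median of 249 with INT-787. With INT-787, 3 of 9 mice were above the highest vehicle mouse, which was replicate 4. *Slc25a13* rose 1.44-fold with INT-787 (log2 0.52 ± 0.103 SE, adjusted p = 0.00038 by edgeR). With OCA the log2 fold change of *Slc25a13* was 0.27 (95% interval 0.05 to 0.48, adjusted p = 0.13 by edgeR), and it passed without vehicle replicate 4 (0.34, adjusted p = 0.020 by edgeR). With sets of neighbouring sample numbers as a factor, which also takes that mouse and OCA replicate 9 out of the contrast because they have no partner, the value was 0.33 (adjusted p = 0.038 by edgeR).

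Thus 3 of the 7 genes showed no overlap between treated and vehicle mice with each drug, *Cps1*, *Ass1*, and *Slc25a15*. Over all genes tested, 1.79% were higher without overlap with INT-787 and 0.604% with OCA.

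**Figure D2:**
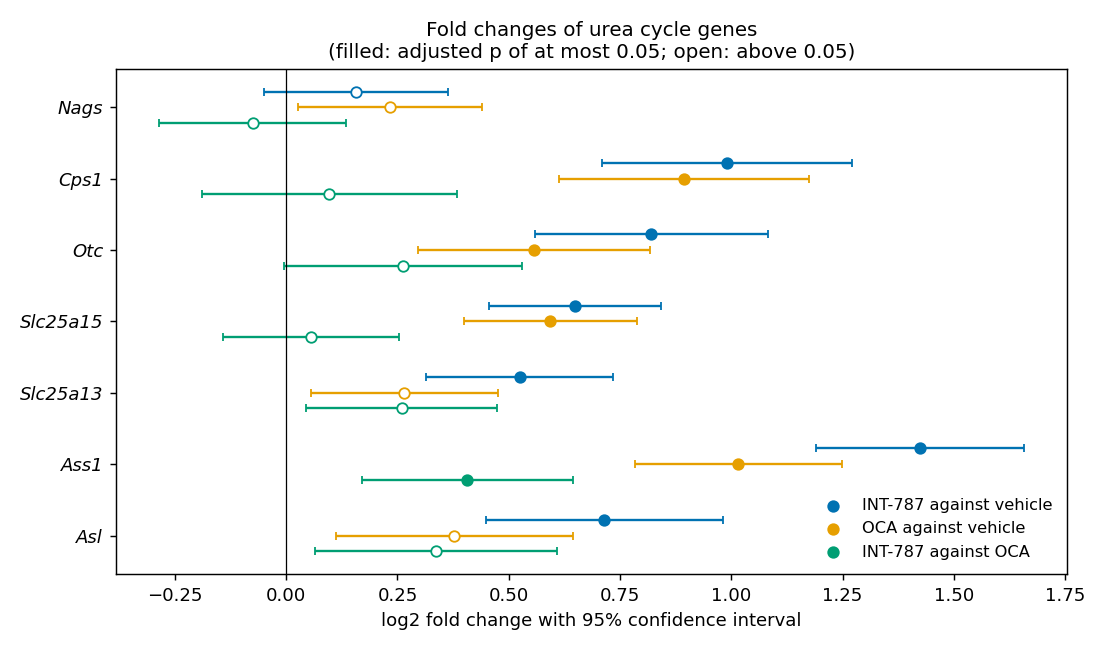
Log2 fold change of each urea cycle gene (horizontal axis) with its 95% interval (filled where the adjusted p is at most 0.05), for each drug against vehicle and for the 2 drugs against each other. *Ass1* lies farthest from 0 in all 3 comparisons, and *Nags* lies nearest to 0 against vehicle.

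The direct comparison of the drugs, the only pair of compounds at matched dose and duration, tested whether the responses differed. *Ass1* was 1.33-fold higher with INT-787 than with OCA (log2 0.41, 95% interval 0.17 to 0.64, adjusted p = 0.033 by edgeR), with 8 of 9 INT-787 mice above the OCA median and overlapping groups. It was the only 1 of the 7 genes to pass, where 5.38% of all genes did (2.19% higher, 3.19% lower). This call was lost without OCA replicate 1, 5, or 6 or INT-787 replicate 6 or 8 (adjusted p = 0.053 to 0.081 by edgeR), with upper-quartile normalization (0.053), and in a fit of these 2 groups alone (0.065).

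*Asl* and *Slc25a13* were at log2 0.34 and 0.26 in INT-787 against OCA (95% intervals 0.06 to 0.61 and 0.04 to 0.47) and did not pass (adjusted p = 0.15 and 0.16 by edgeR), although all 9 INT-787 mice were above the OCA median of *Slc25a13*. With sets of neighbouring sample numbers as a factor, where OCA replicate 9 drops out, *Asl* passed (0.36, adjusted p = 0.049 by edgeR). *Otc* was at log2 0.26 (-0.0041 to 0.53). Intervals for *Cps1* (-0.19 to 0.38), *Slc25a15* (-0.14 to 0.25), and *Nags* (-0.29 to 0.13) held 0, and they allow differences of these sizes in either direction. The median over the 7 genes was 0.26, against -0.0065 over all genes, and 6 of 7 were above 0, as were 48.6% of all genes.

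Per length, *Ass1* was the most abundant of the 7 messages in every group. Per kilobase of exon, the mean level in vehicle mice was 293 ± 33.2 CPM (SD, n = 10) for *Ass1* and 224 ± 48.3 for *Cps1*. The other 5 genes were lower, from 53.5 ± 13.7 for *Asl*, 46.6 ± 10.0 for *Slc25a13*, and 45.8 ± 8.33 for *Otc* to 28.03 ± 4.32 for *Slc25a15* and 17.2 ± 3.37 for *Nags*. *Asl*, *Slc25a13*, and *Otc* differed from one another by less than the SD of *Asl* between mice, and their order within vehicle mice was not tested.

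With INT-787 the per-length level of *Ass1* was 787 ± 144 (SD, n = 9) and that of *Cps1* 445.5 ± 99.98. With OCA the values were 594 ± 122 and 417 ± 75.4. The share of *Ass1* in the summed per-length level of the 7 genes was 41.5% ± 4.45 in vehicle mice (36.6 to 49.99), 46.7% ± 3.54 with OCA (43.04 to 53.6), and 51.3% ± 2.47 with INT-787 (48.2 to 54.7). The share of *Nags* was 2.45% ± 0.605, 1.63% ± 0.223, and 1.26% ± 0.116, and that of *Cps1* 31.5% ± 5.53, 32.9% ± 2.65, and 28.95% ± 3.00, in the same order. The *Ass1* shares of vehicle and INT-787 mice overlapped at their ends, whereas the *Nags* shares of these groups did not, and these shares were described without a test. A share falls when the other genes rise, and the level of *Nags* itself was not lower with INT-787 (log2 0.16). Counted without regard to length, the 8 genes together took 0.292% ± 0.0412 (SD, n = 10) of all counts in vehicle mice, 0.475% ± 0.0580 (n = 9) in OCA mice, and 0.555% ± 0.0819 (n = 9) in INT-787 mice. No treated mouse (0.385% or more) was inside the vehicle range (0.209% to 0.335%). Most of these counts came from *Cps1* and *Ass1*, which showed no overlap on their own. Their mean levels in vehicle mice were 1245 and 708 CPM, with *Asl* next at 259.

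**Figure D3:**
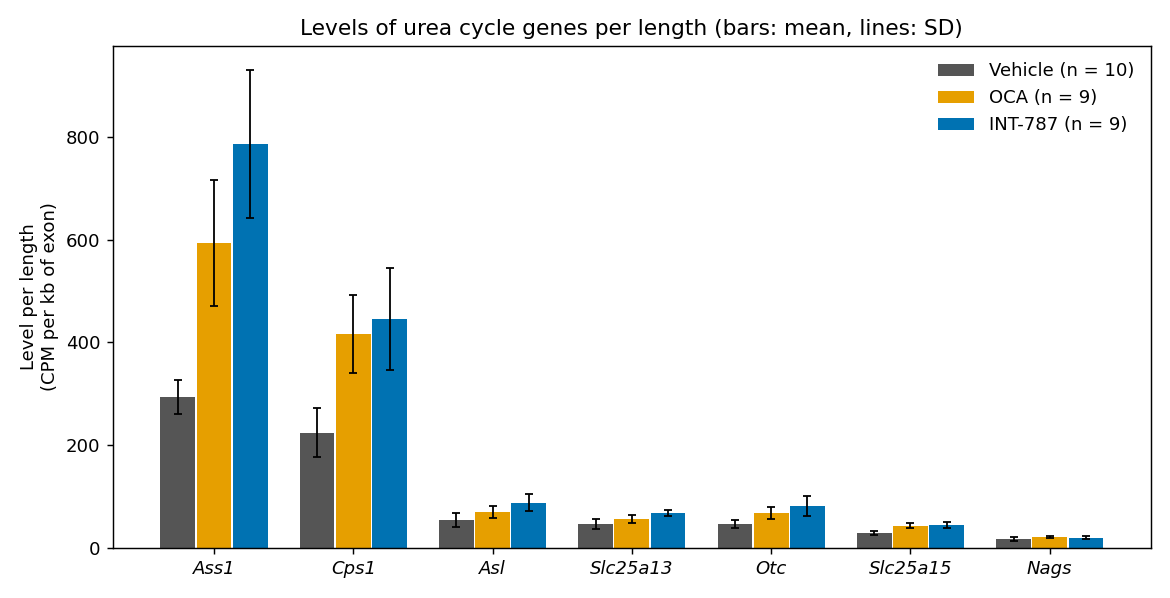
Mean level per length (CPM per kilobase of exon, vertical axis from 0) of the 7 tested urea cycle genes in vehicle (n = 10), OCA (n = 9), and INT-787 (n = 9) mice, with lines for the SD. *Ass1* is highest in each group and *Nags* lowest.

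Relations between the genes over mice of the same group differed by pair. After removal of group means from log2(CPM + 0.5), 18 of the 21 gene pairs had a positive Pearson r over 28 mice, with a median of 0.34 and a range of -0.12 to 0.69, whereas 49.7% of all pairs of the 12580 genes were positive, with a median of -0.0022. Without vehicle replicate 10, all 21 pairs were positive over the other 27 mice, with a median of 0.40 and a range of 0.14 to 0.64. Within groups, 13 of the 21 pairs were positive in each, and negative r was found for 7 pairs in vehicle mice and 1 each in OCA and INT-787 mice. Vehicle replicate 10 had the highest *Nags* and the lowest *Cps1* and *Slc25a15* of its group. Without it, r in vehicle mice went from -0.56 to -0.15 for *Nags* with *Slc25a15*, from -0.49 to -0.13 for *Cps1* with *Asl*, and from -0.40 to -0.11 for *Asl* with *Slc25a15*. These pairs stayed negative, as did *Cps1* with *Ass1* (-0.17 and -0.18) and *Ass1* with *Slc25a13* (-0.08 and -0.05). *Nags* with *Slc25a13* went from -0.32 to 0.12. By a 2-sided permutation test within groups with Benjamini-Hochberg adjustment over the 21 pairs, 6 pairs passed by Pearson's r, all positive, and 5 by Spearman's rho. *Cps1* and *Slc25a15* had the highest Pearson r (r = 0.69, permutation p = 0.00019, adjusted p = 0.0039; rho = 0.67, permutation p = 0.00029, adjusted p = 0.0030). Without the 2 mice farthest from the *Cps1* median r was 0.62, and within groups it was 0.87 for vehicle, 0.48 for OCA, and 0.56 for INT-787. *Nags* and *Ass1* had the highest rho (rho = 0.68, permutation p = 0.00021, adjusted p = 0.0030; r = 0.55, permutation p = 0.00092, adjusted p = 0.0048). Without the 2 mice farthest from the *Nags* median their r was 0.64, and within groups it was 0.50 for vehicle, 0.51 for OCA, and 0.79 for INT-787. Over the 27 mice without vehicle replicate 10, r was 0.64 for *Nags* with *Ass1* and 0.60 for *Cps1* with *Slc25a15*.

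*Asl* paired with *Nags* (r = 0.65, permutation p = 0.00037, adjusted p = 0.0039; rho = 0.60, permutation p = 0.0017, adjusted p = 0.0088) and with *Ass1* (r = 0.57, permutation p = 0.00089, adjusted p = 0.0048; rho = 0.63, permutation p = 0.00072, adjusted p = 0.0050). Without the 2 mice farthest from the median, of *Nags* and of *Ass1* in turn, these were 0.57 and 0.58. The *Nags* pair was 0.76, 0.45, and 0.59 in vehicle, OCA, and INT-787 mice and the *Ass1* pair 0.49, 0.76, and 0.59. The relation of *Nags* and *Cps1* did not pass over all mice (r = 0.03, permutation p = 0.90, adjusted p = 0.94; rho = 0.35, permutation p = 0.087, adjusted p = 0.15), and r was -0.68 in vehicle, 0.52 in OCA, and 0.81 in INT-787 mice, a difference that was not tested. The vehicle value rested on replicate 10, without which it was -0.17, and r over the other 27 mice was 0.47. Without the 2 farthest mice r was 0.34.

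**Figure D4:**
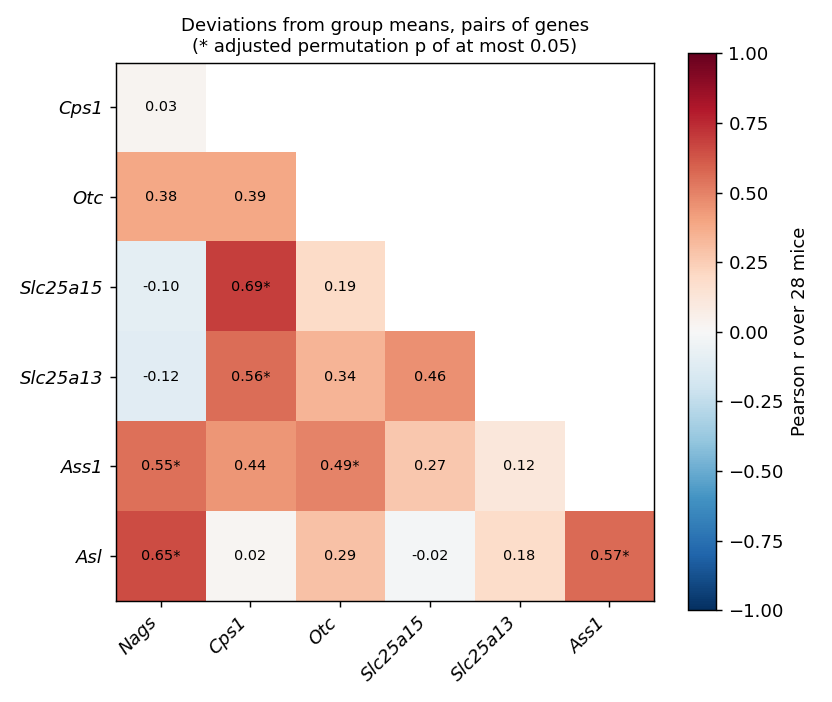
Pearson r between the residual log2 levels of each pair of urea cycle genes over 28 mice, after removal of group means (colour scale from negative to positive r). *Cps1* with *Slc25a15* has the highest r, 0.69, and *Nags* with *Slc25a13* the lowest, -0.12. Without vehicle replicate 10 these were 0.60 and 0.14, and *Nags* with *Ass1* was highest at 0.64.

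Genes outside the cycle whose residuals were most like the mean of the 7 over the 28 mice included *Aass* (r = 0.83, lysine degradation), *Gls2* (0.80, liver glutaminase), *Hpd* (0.78, tyrosine degradation), and *Pxmp2* (0.76, a peroxisomal membrane protein), given as a description without a test. These 4 genes rose with both drugs, *Gls2* by log2 1.29 with INT-787 and 0.97 with OCA and *Aass* by 0.84 and 0.45.

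Genes around the cycle were read from lists of 43 genes (41 tested) that bring nitrogen to it, use arginine and ornithine, or handle its products. With INT-787, 14 rose and 1 fell, and with OCA 7 rose and none fell, so 36.6% and 17.1% of the 41 changed, against 19.6% and 6.6% of all genes (3 rose with OCA without vehicle replicates 5 and 6, and 4 without vehicle replicate 5 or OCA replicate 5, 7, or 9). The direct comparison found 1 higher and 1 lower, 4.88% against 5.38% of all genes, and 6 passed without OCA replicate 3. Their median log2 fold change was 0.16 with INT-787 and 0.063 with OCA.

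Among 15 genes of nitrogen entry, INT-787 raised 8 (53.3%, against 19.6% of all genes changed) and OCA raised 7 (46.7%, against 6.6%), and none fell. The largest rises were in *Gls2*, which frees ammonia from glutamine for the cycle, *Slc38a3*, a glutamine transporter (log2 1.04 and 0.73 with INT-787 and OCA), and *Car5a*, which supplies bicarbonate to the *Cps1* reaction (1.07 and 0.68). *Gls2* measured 64.2 to 109.7 CPM in vehicle mice, 109.0 to 227 with OCA, and 119.7 to 311 with INT-787, so the OCA and vehicle ranges overlapped slightly. Among 19 genes of arginine and ornithine use, INT-787 raised 3, *Prodh* (1.07, adjusted p = 0.00031 by edgeR), which oxidises proline, *Aldh4a1* (0.53), and the arginine transporter *Slc7a2* (0.48), and lowered *Sms*, spermine synthase (-0.41), named after its value was seen. These 4 were 21.1% of the list, near the 19.6% of all genes. OCA changed none of these 19, with 6 at an unadjusted p under 0.05. *Pycr1*, a low gene of proline synthesis that was named after its value was seen, was lower with INT-787 than with OCA (-1.07, 0.7205 ± 0.236 against 1.52 ± 0.658 CPM).

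Of 7 tested genes for fumarate handling, sirtuins, and urea channels, INT-787 raised *Mdh1* (log2 0.60), which oxidises malate, *Sirt3* (0.43), a mitochondrial deacetylase, and *Aqp8* (0.43), a water and ammonia channel. These 3 were 42.9% of the list, against 19.6% of all genes. OCA raised none of these 7, with 1 at an unadjusted p under 0.05. *Aqp8* was higher with INT-787 than with OCA (log2 0.68, adjusted p = 0.0062 by edgeR).

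Of 16 regulators known to act on the cycle or on the drug response, INT-787 raised 6 and lowered *Foxa1*, a liver transcription factor (-0.39), named after its value was seen, and OCA raised 2. *Klf15*, a glucocorticoid-inducible factor for amino acid breakdown, rose by log2 0.51 and 0.52. *Nr0b2*, an FXR target encoding a repressor, rose by 1.62 and 1.17. *Ppargc1a*, a coactivator of fasting metabolism, rose by 0.58 with INT-787 (adjusted p = 0.0091 by edgeR), and with OCA its log2 fold change was 0.42 (adjusted p = 0.13 by edgeR).

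**Figure D5:**
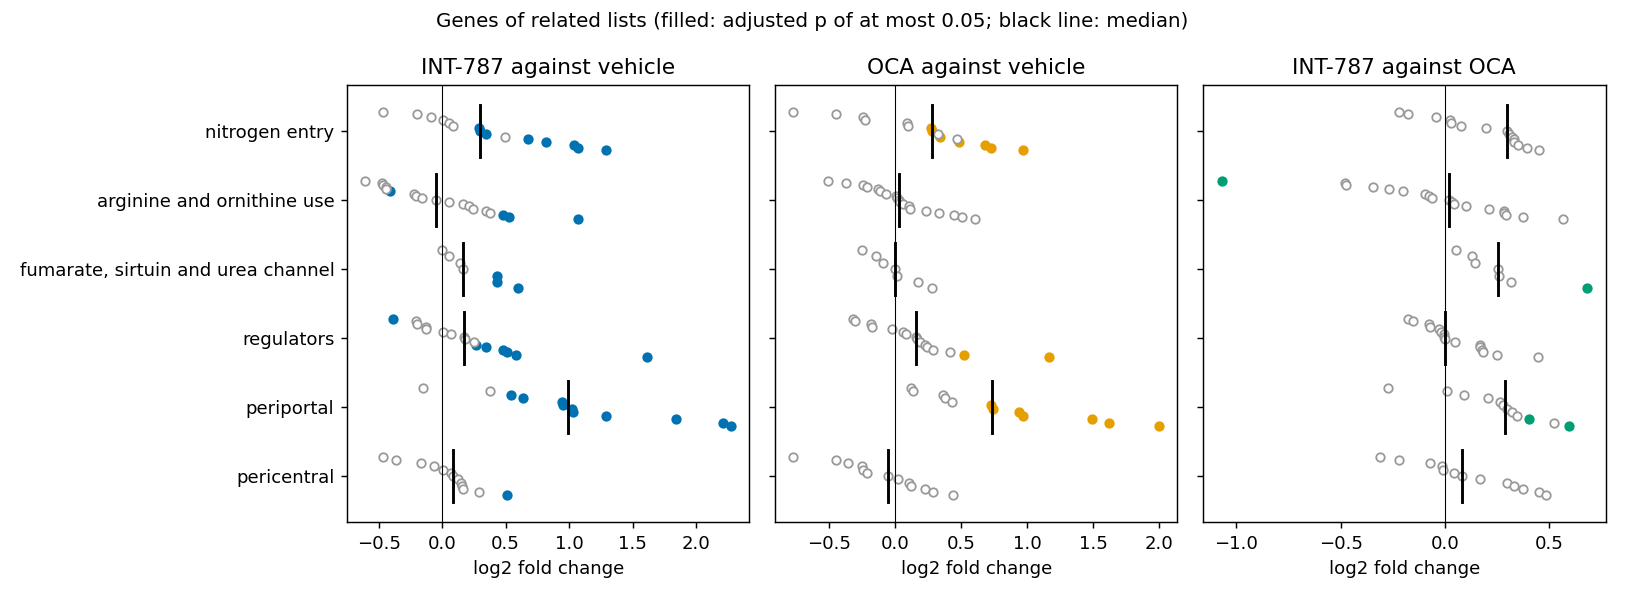
Log2 fold change (horizontal axis) of each gene (points, filled where the adjusted p is at most 0.05) in 6 lists, with the list median (black line), in the 3 comparisons. Against vehicle the periportal medians are 0.99 with INT-787 and 0.73 with OCA, and the pericentral medians 0.087 and -0.051.

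Genes of the periportal zone were read from a list that, like the others, was chosen with earlier results of these data known. It shares *Gls2* with the list of nitrogen entry. Over all genes tested, 19.6% changed with INT-787 and 6.6% with OCA. Of the 12 periportal genes, INT-787 raised 10 (83.3%, median log2 0.99) and OCA 7 (58.3%, 0.73), and none fell. *Hal*, which frees ammonia from histidine, rose most, by 2.27 and 2.00, from 83.0 to 127 CPM in vehicle mice to 311 to 578 with OCA and 414 to 602 with INT-787. *Etnppl*, an ethanolamine-phosphate lyase, rose by 2.21 and 1.62 and was higher with INT-787 than with OCA (0.59, adjusted p = 0.0064 by edgeR), and *Hsd17b6* rose by 1.84 and 1.49. Of 13 tested pericentral genes, INT-787 raised 1 (7.69%), *Slc22a3* (log2 0.51), and OCA changed none, with 4 at an unadjusted p under 0.05.

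Markers of cell types moved as well, and their part in the rise of the urea cycle genes was not tested. Of 5 hepatocyte markers matched, *Alb* (log2 0.45 and 0.62) and *Rbp4* (0.63 and 0.47) rose with both drugs. The other 3 did not pass with either drug, with log2 fold changes for INT-787 and OCA of -0.33 and 0.056 for *Ttr*, 0.26 and 0.22 for *Apob*, and 0.052 and 0.30 for *Ambp*. Summed hepatocyte marker levels were 70024 to 132702 CPM in vehicle mice, 113282 to 200223 in OCA mice, and 101218 to 169883 in INT-787 mice, with *Alb* making up 75.8% to 80.8% of the group means. With INT-787, 5 of 8 stellate cell and fibroblast markers, 4 of 7 macrophage, 2 of 5 endothelial, and 1 of 5 cholangiocyte markers fell. These were 62.5%, 57.1%, 40%, and 20% of the lists, against 19.6% of all genes changed (9.48% lower). The cholangiocyte share was thus near that of all genes. Of these 25 markers, OCA changed 1, *Lum* (higher), and it changed 6.6% of all genes. The stellate cell sum was 1251 to 2457 CPM in vehicle mice, 1181 to 3414 with OCA, and 468 to 1095 with INT-787, the macrophage sum 479 to 722, 374 to 963, and 319 to 668, and the endothelial sum 126 to 282, 122 to 193, and 91.2 to 205. The cholangiocyte sum was 482 to 798, 442 to 1618, and 336 to 537, with *Spp1*, the 1 marker of the 5 that passed, making up 85.7% to 90.7% of the group means. No marker was at 0 in all mice of a group. FXR targets changed with both drugs, 3 up and 2 down of 5 tested.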

How the data were processed

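RNA was isolated from snap-frozen liver, and stranded libraries of polyadenylated RNA were sequenced on a NextSeq 500. Per the paper's methods and the submitters' notes, reads were aligned with STAR 2.5.2a to GRCm38 with Ensembl 89. The authors deposited raw counts, whole numbers of reads per Ensembl gene, not normalized, each mouse in a column of its own. The counting program and its use of strand are not given in the sources used here. The table held 21935 genes, 21858 of which matched GENCODE M21 for symbols, and 0 columns lay outside the series.

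From these counts, genes were kept by filterByExpr (12580), scaled by TMM, and tested with edgeR 4.0.16 (glmQLFit, glmQLFTest, R 4.3.3) in 1 model of the 3 groups without covariates, with Benjamini-Hochberg adjustment over all genes tested and a threshold of 0.05. Where no other fit is named, a single gene's adjusted p was taken from this test. CPM are counts scaled to a common TMM-adjusted library total, and CPM per kilobase used the union of exons. Groups came from the labels, and mice were separate animals. Correlations used 100000 permutations within groups. Alternatives were other normalizations and filters, DESeq2 1.42.0, limma-voom (limma 3.58.1), fits of 2 groups, blocks by replicate or sample number, each of the 28 mice left out, and, chosen after seeing the data, omission of vehicle replicates 5 and 6 together and, for correlations and the order of *Nags* values, of vehicle replicate 10.

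Named genes were the members, the 3 called genes of each list and comparison with the largest change and mean CPM of 5 or more, and the 5 genes most like the members. The members and lists were chosen with earlier results of these data known. Of the 9 members 1 is not reported here, nor are 2 other genes that the lists or the naming rule held, and counts over members and lists leave them out. The test was run on simulated data first. The hepatocyte symbol *Tf* was not matched. Genes with few counts are the least precise, with *Nags* at 50 to 1291 counts per mouse.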

Additional observations from a re-analysis of the deposited data

Results flagged for a closer look

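In 21 sets of values (7 genes in 3 groups), the highest or lowest mouse was compared with the rest of its group, and chance marks about 1 in 20 such sets. *Nags* in vehicle replicate 10 was 71.9 CPM, with the next vehicle mouse at 53.0 CPM, a gap of 0.538 of the range of the group. Vehicle replicate 10 was also the lowest vehicle mouse for *Cps1*, *Slc25a15*, and *Slc25a13*. Without it the log2 fold change of *Nags* with OCA was 0.30 and passed (adjusted p = 0.038 by edgeR).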

How the results depend on the processing

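Over 798 values (7 genes, 3 comparisons, 38 alternatives), 780 kept their direction and side of the threshold, 11 newly passed, 7 no longer passed, and none changed sign. Leaving out 1 mouse at a time, the number of urea cycle genes changed by OCA ranged from 4 to 6 (6 without vehicle replicate 4 or 10, 5 without OCA replicate 1), it was 6 with sets of neighbouring sample numbers as a factor (vehicle replicate 4 and OCA replicate 9 have no partner there and drop out), and with INT-787 it stayed at 6. In the direct comparison it was 0 with upper-quartile normalization, 0 with the 2 groups alone, 2 with the number sets, and 0 to 1 leaving out 1 mouse. *Ass1* there had an adjusted p of 0.0071 to 0.081 over the alternatives, and *Asl* with OCA 0.0082 to 0.17, by edgeR except under DESeq2 and limma. Of the 41 related genes, 13 to 18 changed with INT-787 leaving out 1 mouse (15 with all), 4 to 8 with OCA (7 with all), and 2 to 6 directly (2 with all). OCA changed 3 without vehicle replicates 5 and 6, and DESeq2 found 6 directly. The cause of these shifts was not tested.

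Replicate numbers were not taken as pairing the mice, since not every pair passed 0.1: over 27 same-numbered pairs the correlation of deviations was -0.23 to 0.40 (median 0.070, 11 above 0.1), and over 25 pairs of the number sets -0.18 to 0.40 (median 0.10, 12 above 0.1). In all, 10 of 27 mice correlated best with a mouse of their own replicate number, a hint from the data and not the design. A pairing of only some mice could also leave pairs below 0.1, so the rule of 0.1 cannot exclude it. With the replicate number as a block, which also drops vehicle replicate 10, the only mouse of its number, the urea cycle counts were 7, 6, and 1 (INT-787, OCA, direct) and the related counts 16, 4, and 2. *Nags* then passed with both drugs (log2 0.22 with INT-787, adjusted p = 0.044; 0.31 with OCA, adjusted p = 0.013, by edgeR) and *Asl* with OCA (0.46, adjusted p = 0.0082 by edgeR).

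Upper-quartile normalization shifted the median of all genes by less than 0.1, and the share of changed genes that were higher went from 51.7% to 37.5% with INT-787, from 62.9% to 52.3% with OCA, and from 40.8% to 32.2% directly. Depth was lowest in vehicle replicate 6.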
